A study of Homo sapiens with 6 samples.

Results

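The 38 genes described here are the integrin subunits and laminin chains of the human genome that the count table lists, out of 55882 genes in all. They were taken by a rule on the gene symbol and comprise 18 integrin alpha subunits, 8 integrin beta subunits and 12 laminin chains. Integrins are transmembrane receptors built from 1 alpha and 1 beta subunit, which bind matrix proteins outside the cell and the actin cytoskeleton inside it. Laminins are secreted trimers of an alpha, a beta and a gamma chain that form the sheet-like core of basement membranes. Cells of mesenchymal and epithelial origin hold on to laminin through integrins that pair ITGB1 with ITGA3, ITGA6 or ITGA7, or ITGB4 with ITGA6.

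Polyadenylated RNA was sequenced from DIvA cells, a derivative of the U2OS osteosarcoma line engineered to carry an AsiSI nuclease that enters the nucleus and cuts the genome once 4-hydroxytamoxifen (4-OHT) is added. There were 3 libraries labelled p53 WT and 3 labelled p53 KO, and both groups received 300 nM 4-OHT for 5 h, so every library comes from cells under DNA cutting. The comparison asks which transcripts differ between damaged cells with and without p53. No library came from cells without 4-OHT, so differences present before cutting cannot be told from differences in the response to it. The labels name neither the number of knockout clones nor separate cultures, so that a clone's own features and the loss of p53 cannot be told apart, and p-values weigh only the spread between these samples. Libraries held 20393909 to 79767519 counts. The labels were checked on 2 genes that p53 induces. CDKN1A, a cell cycle inhibitor, had a log2 fold change (p53 KO over p53 WT throughout) of -3.56, and MDM2, the ubiquitin ligase of p53, had -1.93. Of 7 genes that mark osteoblasts or mesenchymal tumour cells, VIM, SPARC and COL1A1 were abundant, COL1A2 was under 1 CPM in every library and TWIST1 was at or near 0. Mean levels of VIM and SPARC were lower in p53 KO, while COL1A1 had 688 CPM in p53 WT and 930 CPM in p53 KO. The 7 summed to 5019 to 5654 CPM in p53 WT and 3298 to 3739 CPM in p53 KO, and of 6 tested 4 fell and 1 rose. In bulk RNA, fewer cells of a type and less RNA per cell cannot be told apart. Levels are CPM, that is, read counts scaled to the library total with TMM factors, and a call is an adjusted p under 0.05 by edgeR's quasi-likelihood test over all tested genes.

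Integrin and laminin transcripts changed in both directions, more of them downwards. Of the 38 genes 34 passed the filter on low counts. Of these 11 were lower and 6 were higher in p53 KO, and 17 did not pass. That is 50% called, where 26.5% of all 22352 tested genes were called, 14.4% lower and 12.1% higher. At mean levels of 10 CPM and above, 11 of 19 members passed, or 57.9%, against 38.7% of all such genes. The median log2 fold change was -0.15 over the 34 members and 0.0052 over all tested genes. The largest decreases above 10 CPM were in ITGA2, LAMB1 and ITGA6, and the largest increases in ITGA7, LAMA5 and LAMA1. The groups did not overlap for 20 of the 34 members, or 58.8%, where 40.8% of all tested genes had groups that did not overlap. Genes near each other on a chromosome can shift together, so each fold change was also set against the median of the 50 nearest genes. With that median taken off, 4 members were higher and 10 lower, where 19.8% of all genes were called, 9.41% higher and 10.4% lower, and 12 of the 17 calls were kept. ITGA8, ITGAL, LAMA4 and LAMB4 were too low to test, at no more than 10 counts in any library.

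**Figure D1:**
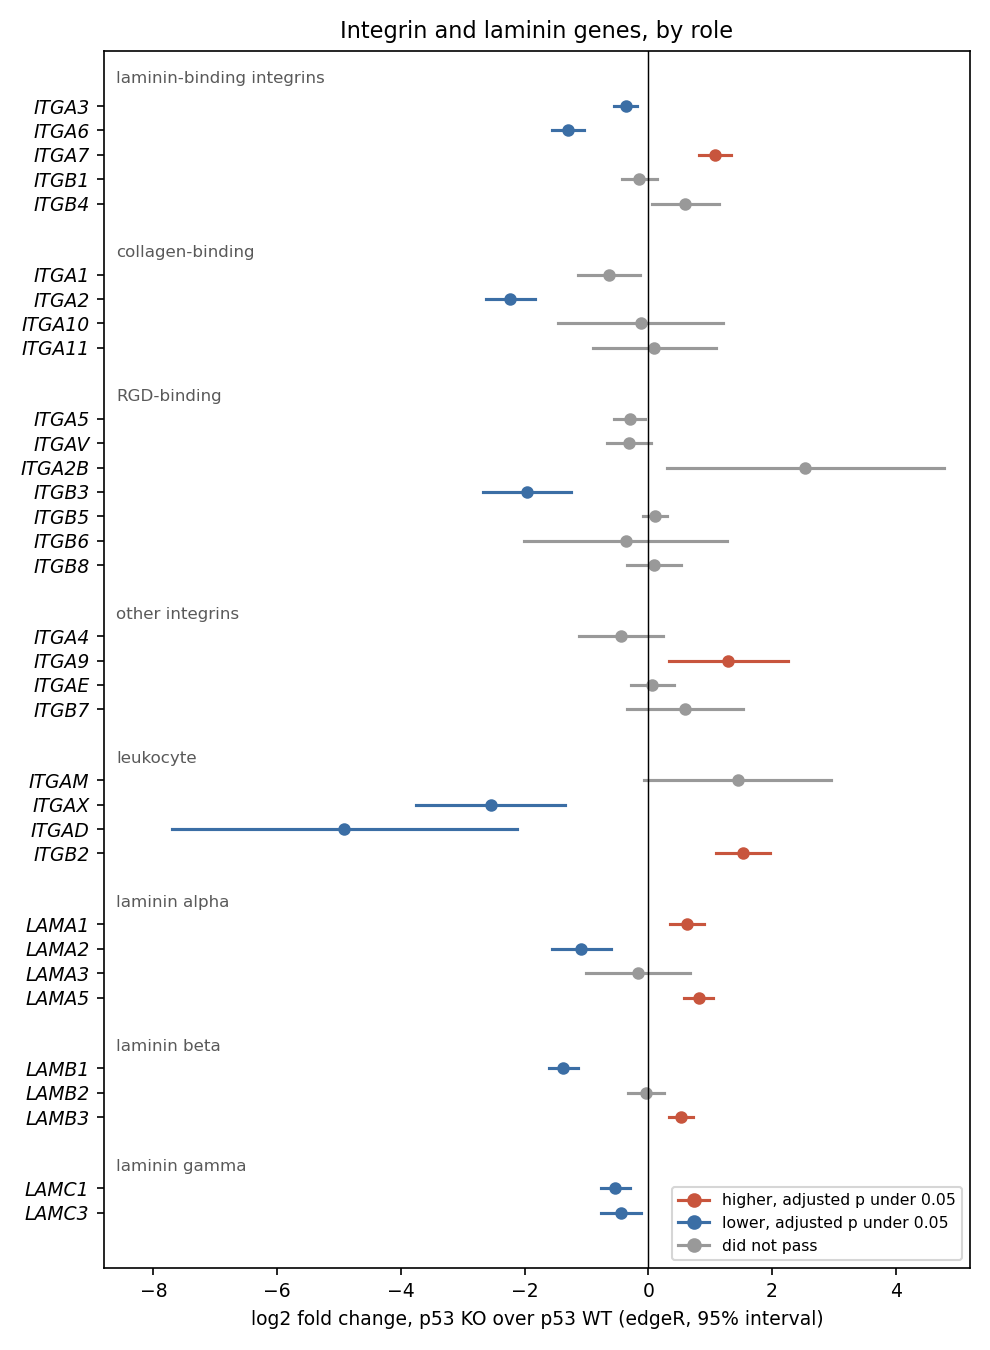
Log2 fold change of 33 tested integrin and laminin genes, p53 KO over p53 WT, with 95% intervals from edgeR, ordered by role. Red marks genes called higher, blue those called lower and grey those that did not pass. ITGA2, ITGA6 and LAMB1 lie well to the left of 0, and ITGA7 and ITGB2 to the right.

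The authors' deposited table marks genes that intersect a p53 cistrome, the set of sites where p53 was mapped on chromatin. It marks 124 genes, 2 of them members: ITGA2 and ITGA6. All 124 are at least 1.02 higher in p53 WT on the log2 scale in that table, with an adjusted p of at most 0.0412, so every marked gene is lower in p53 KO, and a gene without the mark is not shown to lack p53. A total of 1050 genes in the authors' deposited table met a log2 fold change of at least 1 and an adjusted p under 0.05, and 11.8% of them carry the mark. Among the members 7 met those bounds and 2 carry it. The sequences upstream of the RefSeq start sites (GRCh38.p14) are shown for both marked genes and for LAMB1, the 3 members above 10 CPM that fell the most. Of the 2 entries for ITGA6 in RefSeq's table, only 1 is shown. Each ends at the first annotated start in GENCODE 29 or RefSeq, and capitals mark GC boxes (GGGCGG) and the TATA box (TATAAA), read on both strands.
ITGA2, chr5:52989102-52989325, + strand: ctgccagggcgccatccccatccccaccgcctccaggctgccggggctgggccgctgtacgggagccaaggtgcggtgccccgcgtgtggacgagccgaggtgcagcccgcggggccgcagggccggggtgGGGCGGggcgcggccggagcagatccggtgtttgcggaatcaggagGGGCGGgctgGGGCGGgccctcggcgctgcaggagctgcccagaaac
ITGA6, chr2:172427086-172427335, + strand: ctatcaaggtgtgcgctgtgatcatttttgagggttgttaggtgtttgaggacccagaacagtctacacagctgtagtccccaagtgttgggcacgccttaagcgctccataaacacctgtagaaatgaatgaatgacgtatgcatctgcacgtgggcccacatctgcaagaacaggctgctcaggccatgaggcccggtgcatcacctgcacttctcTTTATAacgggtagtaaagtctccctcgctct
LAMB1, chr7:108003256-108003411, - strand: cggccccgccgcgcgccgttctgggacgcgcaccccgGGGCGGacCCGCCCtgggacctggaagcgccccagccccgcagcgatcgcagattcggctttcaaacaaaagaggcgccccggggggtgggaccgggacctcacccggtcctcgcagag

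The ITGA2 stretch holds 3 GC boxes and the LAMB1 stretch 2, with 77.2% and 75% G or C. The ITGA6 stretch shown has 50.8% G or C, no GC box and 1 TATA box match on the opposite strand. The ITGA6 entry that is not shown does hold a GC box, so the lack of one belongs to the printed stretch only. RefSeq's table held 33 promoters for 26 of the 38 members. In the 250 bases upstream, a GC box was found in 51.5% of the member promoters and in 42.6% of all 35116 promoters, and TATAAA in 6.06% and 10.7%. The AP-1 motif TGANTCA was found in 6.06% of the member promoters (LAMA3 and LAMB3) and 6.57% of all. The p53 half-site, a motif known by that name, was in 0 of the 33 member promoters and in 5.57% of all, which says only that these letters are not in these windows.

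The laminin-binding integrins were led by ITGA3 and ITGB1, and within them ITGA6 fell while ITGA7 rose. ITGA3, the alpha subunit for laminins with an alpha 3 or alpha 5 chain, stood at 772, 820.0 and 828 CPM in p53 WT replicates 1, 2 and 3 and at 580.2, 648 and 650.0 CPM in the p53 KO replicates. Each p53 KO library lay below every p53 WT library, and the log2 fold change was -0.37 (SE 0.09, adjusted p = 0.00652 by edgeR). ITGA6, which pairs with ITGB1 or with ITGB4 of the hemidesmosome, stood at 137, 159.5 and 151 CPM in p53 WT and at 55.6, 72.1 and 55.3 CPM in p53 KO. The groups were far apart (log2 fold change -1.29, SE 0.12, adjusted p = 3.43e-06 by edgeR), with a level 2.44-fold higher in p53 WT. ITGA7, the laminin receptor subunit best known from muscle, went the other way, from 23.8, 27.8 and 23.4 CPM to 48.8, 54.5 and 54.9 CPM. ITGA7 had a log2 fold change equal to 1.07 (SE 0.12, adjusted p = 1.73e-05 by edgeR), again without overlap. METTL7B, with exons that overlap those of ITGA7 on the other strand, had 4.79 CPM in p53 WT and 6.59 CPM in p53 KO. The count ratio of ITGA7 to ITGA6 was 0.168 ± 0.0114 (SD, n = 3) in p53 WT and 0.876 ± 0.119 (SD, n = 3) in p53 KO. Per kilobase of transcript, where levels of different genes can be set side by side, ITGA7 was at 6.07 ± 0.587 CPM per kb against 26.6 ± 2.05 for ITGA6 in p53 WT (SD, n = 3). In p53 KO ITGA7 was at 12.8 ± 0.824 CPM per kb and ITGA6 at 10.9 ± 1.71 (SD, n = 3), so the order of the group means turned. With merged exon lengths the p53 KO means were 11.7 for ITGA7 and 10.4 for ITGA6. The margin was small in p53 KO replicate 2, at 13.2 against 12.8 CPM per kb by the longest transcript. In that library the order of ITGA7 and ITGA6 depends on the length used. ITGA3 stayed above both, at 165 ± 6.21 CPM per kb in p53 WT and 128 ± 8.15 in p53 KO (SD, n = 3).

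The beta partners of these receptors did not pass the test. ITGB1, the partner of most alpha subunits, had 749.9, 983 and 1000.3 CPM in p53 WT and 788, 983 and 703 CPM in p53 KO, and the groups overlapped. Its log2 fold change was -0.14 with a 95% interval of -0.43 to 0.14 (adjusted p = 0.486 by edgeR). ITGB4, the long-tailed beta subunit of hemidesmosomes, had 7.14, 5.06 and 9.87 CPM in p53 WT and 12.8, 8.16 and 12.1 CPM in p53 KO. Its log2 fold change was 0.60 with an interval of 0.06 to 1.14 (adjusted p = 0.0986 by edgeR), with overlap. Per kilobase ITGB4 reached 1.24 and 1.86 CPM per kb in p53 WT and p53 KO, far under ITGA6 in both groups. The 50 nearest genes on the chromosome had a median log2 fold change of -0.25 around ITGB4, and once this was taken off, ITGB4 had 0.85 (adjusted p = 0.029 by edgeR).

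**Figure D2:**
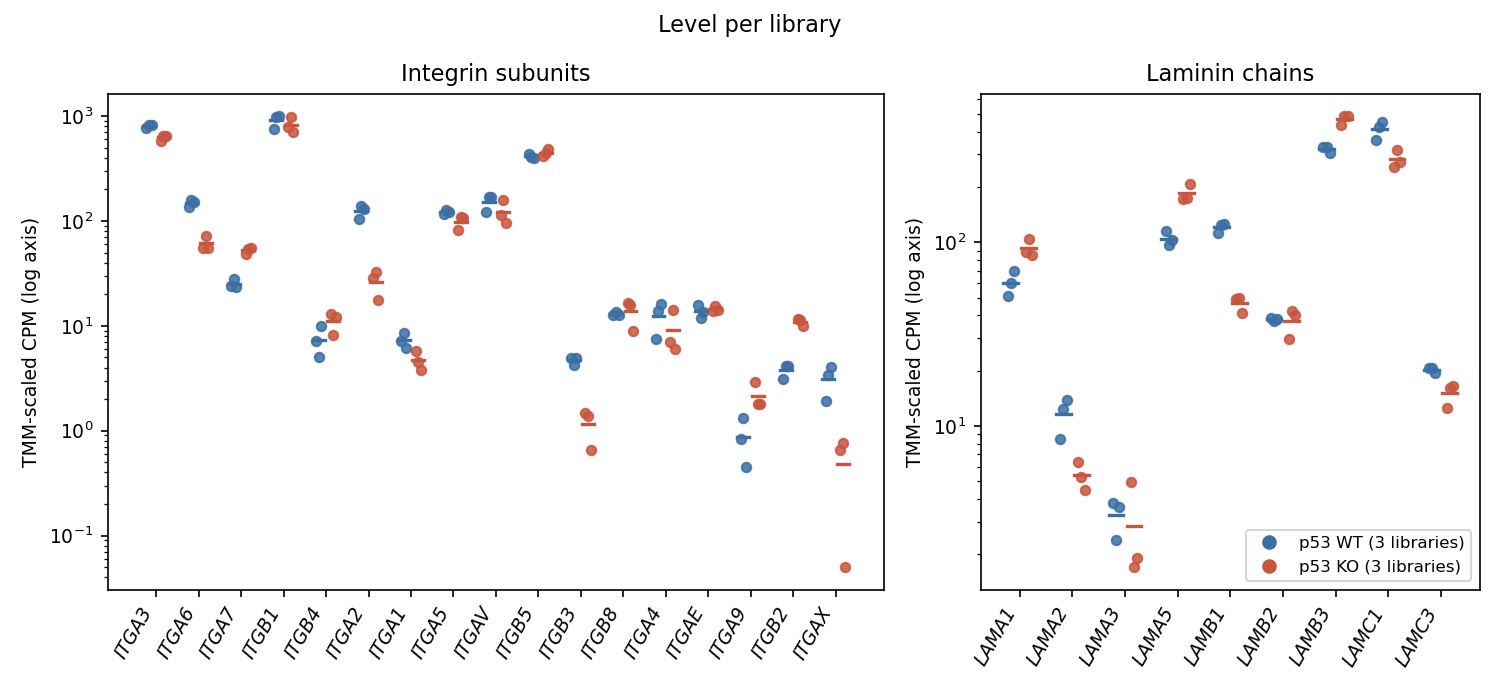
TMM-scaled CPM of 17 integrin subunits and 9 laminin chains on a log axis, 1 point per library and a line at the mean of the 3 libraries of a group. Of the integrins above 10 CPM, ITGA2 shows the widest gap, 105 to 139 CPM in p53 WT against 17.6 to 32.5 CPM in p53 KO. ITGB1, ITGB5, ITGB8, ITGA4, ITGAV and ITGAE overlap.

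Of the 4 collagen-binding alpha subunits only ITGA2 passed. ITGA2, the alpha subunit of a receptor for fibrillar collagen that also binds laminin, stood at 105, 139 and 129 CPM in p53 WT and at 28.7, 32.5 and 17.6 CPM in p53 KO. The lowest p53 WT library was over every p53 KO library by a wide margin, and the log2 fold change was -2.23 (SE 0.18, adjusted p = 1.22e-06 by edgeR), 4.69-fold higher in p53 WT. ITGA1, a collagen IV receptor subunit whose gene neighbours ITGA2 on chromosome 5, had 7.23, 8.50 and 6.21 CPM in p53 WT and 5.75, 4.52 and 3.81 CPM in p53 KO. These groups did not overlap, but the test was not passed (log2 fold change -0.63, 95% interval -1.13 to -0.13, adjusted p = 0.0602 by edgeR). PELO, whose exons overlap those of ITGA1 in GENCODE 29 on the same strand, had 53.04 CPM in p53 WT and 48.87 CPM in p53 KO, and how the count treated shared bases is not given in the sources used here. ITGA10 and ITGA11, which bind collagen in cartilage and fibroblasts, were under 3 CPM in every library and had log2 fold changes of -0.12 and 0.09 with wide intervals, -1.46 to 1.22 and -0.90 to 1.09.

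Among the receptors for the RGD motif of fibronectin and vitronectin, ITGB3 fell and the abundant subunits did not pass. ITGB3, which pairs with ITGAV, stood at 4.89, 4.19 and 4.97 CPM in p53 WT and at 1.47, 1.37 and 0.652 CPM in p53 KO. Its log2 fold change was -1.96 (SE 0.33, adjusted p = 0.000568 by edgeR), and the groups did not overlap. ITGB5, an alternative partner of ITGAV, had 438, 404 and 400.4 CPM in p53 WT and 416, 443 and 480.3 CPM in p53 KO, and the groups overlapped (log2 fold change 0.11, interval -0.09 to 0.31, adjusted p = 0.438 by edgeR). Neighbours of ITGB5 had a median of 0.34, and after it was taken off the value was -0.23 (adjusted p = 0.103 by edgeR), so its direction depends on that setting. ITGAV itself had 122, 168 and 169.9 CPM in p53 WT and 114, 158 and 96.1 CPM in p53 KO, with overlap. ITGAV had a log2 fold change of -0.32 (interval -0.67 to 0.04, adjusted p = 0.189 by edgeR), and it was called lower, at -0.54 (adjusted p = 0.0125 by edgeR), without p53 KO replicate 2. ITGA5, the fibronectin receptor subunit, had 116, 126 and 121 CPM in p53 WT and 81.6, 108 and 107 CPM in p53 KO. These did not overlap, yet the log2 fold change of -0.30 (interval -0.55 to -0.05) missed the threshold at adjusted p = 0.0735 by edgeR. ITGA5 passed without p53 KO replicate 2 (-0.37, adjusted p = 0.0456 by edgeR) or p53 KO replicate 3 (-0.35, adjusted p = 0.0362 by edgeR), and with the local median taken off (-0.46, adjusted p = 0.0121 by edgeR).

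Of the other RGD-binding subunits, ITGB8, which with ITGAV frees TGF-beta from its latent complex, had 12.6, 13.6 and 12.7 CPM in p53 WT and 16.3, 15.9 and 8.97 CPM in p53 KO. The p53 KO libraries lay on both sides of the p53 WT ones. ITGB6, an epithelial partner of ITGAV, was at 0.100 to 1.03 CPM in all libraries (log2 fold change -0.37, interval -2.01 to 1.27). ITGA2B, the platelet subunit, had 13, 7 and 0 counts in p53 WT and 22, 31 and 15 counts in p53 KO, and did not pass (adjusted p = 0.0927 by edgeR). Of 5 platelet markers GP9, PF4 and PPBP were at 0 in every library. The summed level of the 5 was 10.7 to 13.5 CPM in p53 WT and 24.0 to 34.2 CPM in p53 KO, nearly all from GP6.

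ITGA4, ITGA9, ITGAE and ITGB7 bind other ligands, such as VCAM1, tenascin and E-cadherin, and of these only ITGA9 passed, with a call that single libraries decide. ITGA9 stood at 0.839, 1.31 and 0.452 CPM in p53 WT and at 2.90, 1.78 and 1.80 CPM in p53 KO, without overlap (log2 fold change 1.29, SE 0.45, adjusted p = 0.0468 by edgeR). It missed the threshold without p53 WT replicate 1 (1.24, adjusted p = 0.117 by edgeR), p53 WT replicate 3 (1.02, adjusted p = 0.146), p53 KO replicate 1 (1.01, adjusted p = 0.185) or p53 KO replicate 2 (1.41, adjusted p = 0.0522), and with the local median removed (1.28, adjusted p = 0.0601). ITGA4 had 7.41, 13.9 and 16.0 CPM in p53 WT and 7.04, 14.2 and 5.96 CPM in p53 KO. These groups overlapped, and ITGA4 passed only without p53 KO replicate 2 (-0.92, adjusted p = 0.0278 by edgeR, against -0.44 with it). ITGAE had 15.6, 11.9 and 13.7 CPM in p53 WT and 13.8, 15.3 and 14.1 CPM in p53 KO, and ITGB7 was under 3 CPM in every library. Neither passed, with log2 fold changes of 0.07 (interval -0.28 to 0.41) and 0.59 (interval -0.35 to 1.53). ZNF740, with exons that overlap those of ITGB7 on the other strand, had 34.9 CPM in p53 WT and 46.4 CPM in p53 KO. Since the strand setting of the count is not known here, ITGB7 values may hold its reads.

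The subunits known from leukocytes were low in these cells but did not move together. ITGB2, the common beta subunit of the leukocyte integrins, rose from 3.14, 4.12 and 4.15 CPM to 11.6, 11.3 and 9.87 CPM, without overlap. The log2 fold change was 1.53 (SE 0.21, adjusted p = 8.44e-05 by edgeR). ITGB2-AS1, on the other strand with overlapping exons, had 0.845 CPM in p53 WT and 2.94 CPM in p53 KO, and since the strand setting of the count is not known here, reads of the 2 genes may not be told apart. ITGAX, one of its alpha partners, fell from 1.92, 3.40 and 4.03 CPM to 0.648, 0.757 and 0.0501 CPM (log2 fold change -2.55, SE 0.56, adjusted p = 0.00372 by edgeR). Every p53 KO library lay under every p53 WT library. ITGAD, a further partner, had 61, 39 and 7 counts in p53 WT and 0, 2 and 0 counts in p53 KO. The level per scaled total count was 42.4-fold higher in p53 WT (95% exact binomial interval 11.5 to 355, counting error only). Its call (adjusted p = 0.0116 by edgeR) was lost without p53 WT replicate 1 (adjusted p = 0.0639) or p53 WT replicate 2 (adjusted p = 0.0504), and its fitted log2 value went from -4.92 to -7.88 without p53 KO replicate 2. ITGAM had 0.220 to 2.03 CPM, overlapped and did not pass (adjusted p = 0.157 by edgeR), and ITGAL had 10 counts in p53 WT replicate 1 and 0 in the other 5 libraries. The 12 leukocyte markers summed to 7.34 to 9.23 CPM in p53 WT and 8.79 to 14.2 CPM in p53 KO, and 2 of 7 tested, CORO1A and CD74, were higher. CD3E had a count in 1 library, and PTPRC, the pan-leukocyte marker, was at 1.27 to 2.21 CPM in p53 WT and 1.08 to 1.10 CPM in p53 KO. The part of such markers in these results was not tested.

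Among laminin alpha chains, which carry the integrin-binding head of the trimer, LAMA5 and LAMA1 rose and LAMA2 fell. LAMA5, the most widely expressed alpha chain in adult basement membranes, went from 115, 96.8 and 103 CPM to 172, 174 and 207 CPM. The groups did not overlap, and the log2 fold change was 0.82 (SE 0.11, adjusted p = 7.04e-05 by edgeR). LAMA1, the alpha chain of embryonic laminin, went from 50.8, 59.8 and 69.6 CPM to 88.1, 104 and 85.4 CPM, also without overlap (log2 fold change 0.62, SE 0.13, adjusted p = 0.00221 by edgeR). Neighbouring genes were higher too at both places. The 50 nearest genes had a median log2 fold change of 0.59 around LAMA5 on chromosome 20 and 0.47 around LAMA1 on chromosome 18. With these medians taken off, LAMA5 had 0.23 (adjusted p = 0.166 by edgeR) and LAMA1 had 0.15 (adjusted p = 0.464 by edgeR), so neither call was kept. LAMA2, the alpha chain of muscle and nerve laminin, fell from 8.48, 12.4 and 13.8 CPM to 6.35, 5.30 and 4.51 CPM (log2 fold change -1.08, SE 0.22, adjusted p = 0.00252 by edgeR). Its groups did not overlap, and its value was -1.09 with the local median removed. LAMA3, the alpha chain of epithelial laminin, had 3.80, 2.39 and 3.62 CPM in p53 WT and 4.93, 1.71 and 1.90 CPM in p53 KO, with overlap and a log2 fold change of -0.16 (interval -1.01 to 0.68).

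The beta chains split: LAMB1 fell, LAMB3 rose and LAMB2 did not pass. LAMB1, a beta chain that joins LAMC1 in laminins with various alpha chains, went from 112, 124 and 126 CPM to 49.1, 49.4 and 41.0 CPM. All 3 p53 KO libraries were at less than the lowest p53 WT library, at a log2 fold change equal to -1.37 (SE 0.11, adjusted p = 9.32e-07 by edgeR), or 2.59-fold higher in p53 WT. LAMB3, the beta chain of epithelial laminin, went from 331, 331 and 306 CPM to 435, 485 and 486 CPM, without overlap (log2 fold change 0.54, SE 0.09, adjusted p = 0.000504 by edgeR). Neither has shifted neighbours, with local medians of 0.06 for LAMB1 and -0.01 for LAMB3. LAMB2, which replaces LAMB1 at nerve-muscle junctions and in the kidney filter, had 38.7, 37.2 and 38.1 CPM in p53 WT and 29.8, 42.1 and 39.998 CPM in p53 KO (log2 fold change -0.03, interval -0.32 to 0.26). Its p53 KO libraries lay on both sides of the p53 WT ones. The count ratio of LAMB3 to LAMB1 was 2.68 ± 0.257 in p53 WT and 10.2 ± 1.53 in p53 KO (SD, n = 3), from 2.44 to 2.95 in the first and 8.84 to 11.8 in the second.

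Of the gamma chains, LAMC1 was called lower in p53 KO in every setting tried and LAMC3 in some of them. LAMC1, the gamma chain of most laminins, went from 359, 424 and 449 CPM to 258, 319 and 274 CPM (log2 fold change -0.53, SE 0.11, adjusted p = 0.00241 by edgeR), without overlap. LAMC3, a gamma chain with a narrower range of tissues, went from 20.8, 20.6 and 19.5 CPM to 12.5, 16.1 and 16.6 CPM. The groups did not overlap, at a log2 fold change of -0.44 (adjusted p = 0.0478 by edgeR), but 5 of the 6 fits that left out 1 library lost the call. These were the fits without p53 WT replicates 1, 2 and 3 (-0.43, -0.43 and -0.47, adjusted p = 0.113, 0.147 and 0.0861 by edgeR) and without p53 KO replicates 1 and 2 (-0.31 and -0.50, adjusted p = 0.168 and 0.0533). Neighbours of LAMC3 on chromosome 9 had a median of -0.43, and the gene had -0.0078 (adjusted p = 0.982 by edgeR) once it was taken off.

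**Figure D3:**
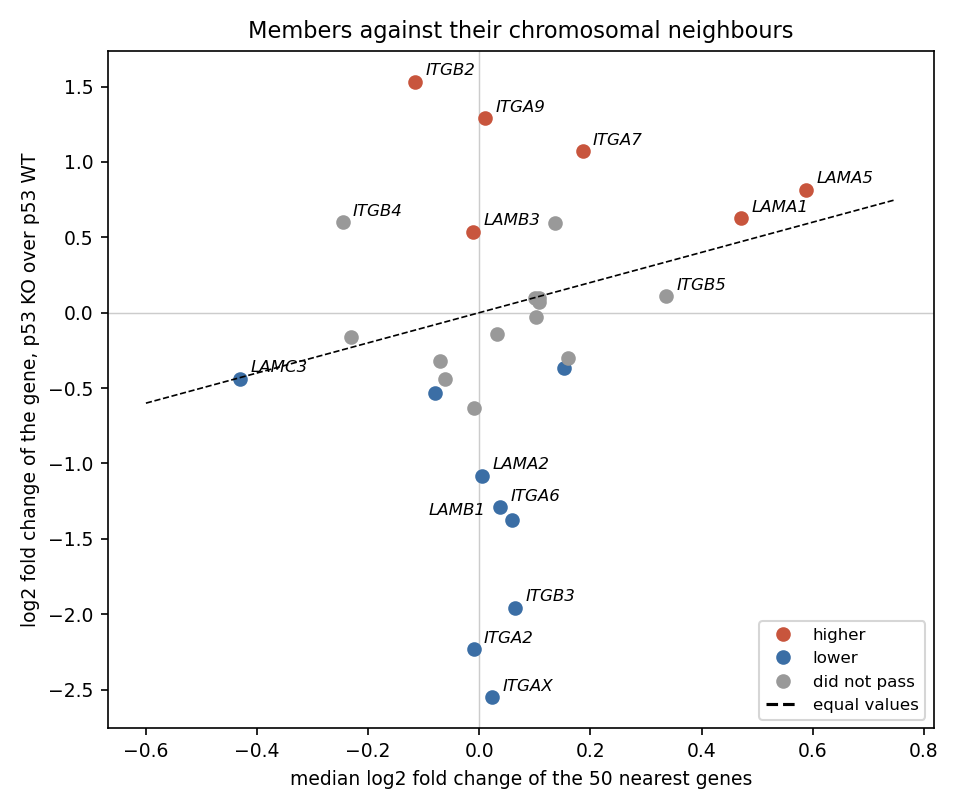
Log2 fold change of integrin and laminin genes averaging 1 CPM or more against the median of its 50 nearest genes, p53 KO over p53 WT, 1 point per gene. LAMA5, LAMA1 and LAMC3 lie near the dashed line of equal values, while ITGA2, ITGA6, LAMB1, ITGB3 and ITGB2 lie far from it with neighbours between -0.12 and 0.06.

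Set per kilobase of transcript, the chains of each trimer differed widely in level. LAMA3 and LAMB3 are chains of epithelial laminin-332. LAMB3 was the highest laminin chain in both groups, at 74.97 ± 3.33 CPM per kb in p53 WT and 108.8 ± 6.81 in p53 KO (SD, n = 3). LAMA3 was at 0.307 ± 0.0717 and 0.267 ± 0.169 CPM per kb (SD, n = 3). Those LAMA3 values rest on its longest transcript of 10661 bases, and a shorter form would raise them in proportion. Laminin-511 and laminin-111 share LAMB1 and LAMC1 and differ in LAMA5 or LAMA1. In p53 WT their scarcest chain was the alpha chain, LAMA5 at 9.16 ± 0.797 and LAMA1 at 6.22 ± 0.9749 CPM per kb, against 20.9 ± 1.25 for LAMB1 (SD, n = 3). In p53 KO the scarcest chain of both was LAMB1, at 8.07 ± 0.830, against 16.1 ± 1.72 for LAMA5 and 9.57 ± 1.03 for LAMA1 (SD, n = 3), and LAMA1 lay above LAMB1 in every p53 KO library. LAMB2, the beta chain of laminin-521, was at 6.70 ± 0.142 and 6.57 ± 1.16 CPM per kb in p53 WT and p53 KO. The ranks of these laminin chains were unchanged when merged exon lengths replaced the longest transcript.

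**Figure D4:**
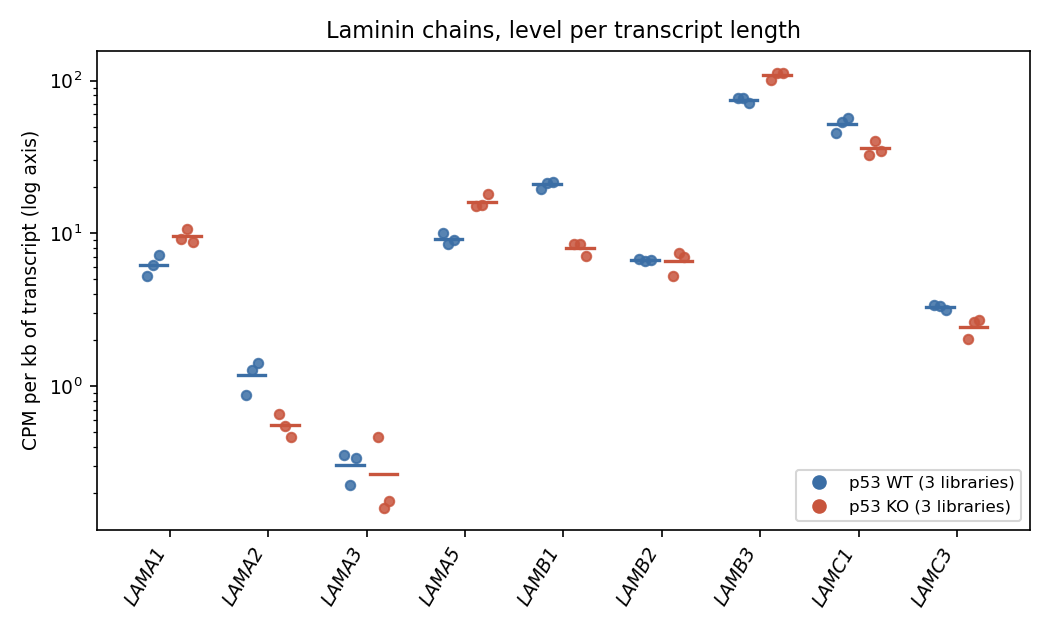
CPM per kilobase of the longest GENCODE 29 coding transcript for 9 tested laminin chains, 1 point per library and a line at the group mean, on a log axis. LAMB3 is highest in both groups. LAMB1 drops from above LAMA5 and LAMA1 in p53 WT to below LAMA5 in p53 KO, and LAMA3 stays under 0.5 CPM per kb in each library.

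The ligand and receptor pairs can be read side by side. ITGA3 and ITGA6, receptor subunits for laminins with LAMA3 or LAMA5, were both lower. Of the chains of those laminins, LAMB1 and LAMC1 were lower, LAMB3 was higher, LAMA3 and LAMB2 did not pass, and LAMA5 was higher only as long as the local median was left in. For laminins with LAMA1 or LAMA2, ITGA7, a subunit of their receptors, was higher and LAMA2 lower. LAMA1 was higher but lost its call with the local median removed. These pairings are not exclusive, since receptors with ITGA6 or ITGA2 also bind laminin, and both subunits were lower. In the pairs with ITGB1 as the shared subunit, ITGB1 did not pass, so the partners called were alpha subunits only: ITGA2, ITGA3 and ITGA6 lower, and ITGA7 and ITGA9 higher. In the pairs with ITGAV as the shared subunit, the partner called was ITGB3, lower. Of 9 epithelial markers 6 are genes of basal epithelium, whose cells carry laminin-332 and the ITGA6 and ITGB4 pair, and these 6 summed to 13.3 to 14.7 CPM in p53 WT and 12.0 to 16.6 CPM in p53 KO. Among the basal genes KRT5 and KRT14 stayed under 2 CPM in every library, KRT15 was at 9.67 to 12.4 CPM in p53 WT and 2.11 to 5.51 CPM in p53 KO, and TP63 was at 0.331 to 0.452 CPM and 2.47 to 8.42 CPM. KRT8 and KRT18, keratins of simple epithelium, summed to 480.1 to 538 CPM in p53 WT and 565 to 689 CPM in p53 KO. Of the 9 markers 8 were tested, and 3 rose and 1 fell. The summed level of 7 markers of endothelial cells, which also make laminin, was 20.6 to 21.9 CPM in p53 WT and 31.3 to 35.9 CPM in p53 KO, mostly ROBO4. Of 5 tested endothelial markers 1 was called higher and 0 lower. The low ones did not move together: mean levels in p53 WT and p53 KO were 1.04 and 2.12 CPM for TEK but 1.27 and 0.596 CPM for CLDN5. The part of these markers in the laminin values was not tested.

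The other genes of matrix adhesion also split. Over 6 lists with 95 tested genes, 19 rose and 26 fell, or 47.4% called, beside 26.5% of all tested genes (12.1% higher and 14.4% lower) and a median log2 fold change of 0.0052 over all of them. Of all genes averaging 10 CPM or more 38.7% were called, and the lists were not matched for level. Of 9 non-integrin laminin receptors 2 rose and 2 fell (44.4% called), with a median log2 fold change of 0.07. BCAM, a cell surface receptor for LAMA5 chains, rose from 40.4, 40.9 and 42.1 CPM to 161, 182 and 215 CPM (log2 fold change 2.17, SE 0.12, adjusted p = 1.95e-08 by edgeR). GPC1, a heparan sulfate proteoglycan, fell from 411, 381 and 391 CPM to 163, 195 and 208 CPM (-1.07, SE 0.10, adjusted p = 5.05e-06 by edgeR). Neither overlapped. Of 14 basement membrane partners of laminin 3 rose and 4 fell (50% called), with a median of -0.29, and COL4A1 and COL4A2, the ubiquitous collagen IV chains, were at -1.25 (SE 0.13) and -1.03 (SE 0.12) on the log2 fold scale. Of 16 tested ligands of other integrins 5 rose and 6 fell (68.8% called), with a median of 0.22. FN1, the fibronectin that ITGA5 and ITGAV receptors bind, and TNC, a tenascin that ITGA9 binds, had -1.84 (SE 0.12) and -1.92 (SE 0.11).

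Inside the cell, 1 of 14 tested integrin tail regulators rose and 4 fell, with a median of -0.25. Their 35.7% called stood between 26.5% of all tested genes and 38.7% of those averaging 10 CPM or more. With local medians removed, 1 of the regulators was higher and 2 were lower. DAB2, an endocytic adaptor that binds beta tails, rose from 49.3 ± 1.78 to 110.3 ± 3.13 CPM over 3 libraries each (SD). FERMT2, the kindlin that activates integrins in mesenchymal cells, had 115 ± 5.19 CPM in p53 WT and 76.2 ± 5.57 CPM in p53 KO over 3 libraries each (SD). Its fold on the log2 scale was -0.60 where neighbours had a median of -0.69, and it had 0.096 (adjusted p = 0.577 by edgeR) with that taken off. Of 31 focal adhesion genes 7 rose and 8 fell (48.4% called), with a median of 0.0041. CAV1, the caveolin that scaffolds adhesion signalling, and PARVB, a parvin that links ILK to actin, had -1.52 (SE 0.11) and -1.08 (SE 0.12). For PARVB the local median was -0.43 and the remaining value -0.65 (adjusted p = 0.00192 by edgeR). Of 11 tetraspanins and hemidesmosome partners 1 rose and 2 fell, with a median of 0.17, and their 27.3% called is near the share of all tested genes. CD9, a tetraspanin found with laminin-binding integrins, had 0.69 (SE 0.10), and PLEC, the plectin that ties ITGB4 to keratin filaments, had -0.65 (SE 0.11).

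Of 35 members with an adjusted p in the authors' deposited table, there were 14 that passed 0.05, where 20.8% of all genes with one did. Read as p53 KO over p53 WT, 9 of the 14 were lower and 5 higher, against 11.2% and 9.64% of all genes in those directions. All 14 were also called here with the same direction. ITGA9 and LAMC3 were called here and not in the authors' deposited table.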

How the data were processed

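RNA of 6 DIvA libraries was measured as described above. Raw counts for each gene symbol were deposited, and so was the authors' own comparison. The submitters' processing notes name fastp 0.21.0 and HISAT2 2.1.0, the build GRCh37 (hg19), and DESeq2 1.3.6. How reads were counted, on which annotation and with what strand setting is not given in the sources used here. Overlapping and antisense genes are therefore uncertain. Per the file headers, the authors' comparison gives for each gene a signal (mean normalised count), a log2 fold change, its error, a test score and p-values. CDKN1A is positive in it, so its sign is p53 WT over p53 KO.

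Counts were tested on the whole table with edgeR 4.0.16 in R 4.3.3 (quasi-likelihood F-test, robust, TMM, filterByExpr, Benjamini-Hochberg over 22352 genes). SE is the size of the fold change over the root of F, and intervals are at 95%. Scripts were tested on simulated data. The integrin and laminin genes, the lists and the tests were chosen with earlier results of these data known. Values per library are given for called members with a mean of at least 1 CPM and for others of at least 10 CPM, and 2 called genes of at least 5 CPM with the smallest adjusted p are named per list. Per-kilobase levels use the longest GENCODE 29 basic coding transcript. Local medians use the 50 nearest of 12095 protein-coding genes averaging 2 CPM or more, in RefSeq's GRCh38.p14 order, a build other than the authors'. Of the endothelial markers 1 is not analysed here. The values of 1 member and 1 leukocyte marker are not reported here, though counts and sums include them. Alternatives were RLE and no composition factors, no filter, 1 CPM in 3 libraries, DESeq2 1.42.0, limma-voom (limma 3.58.1), adjusted p under 0.01, a replicate block, local medians, and each library left out. Replicates differed by more than sampling noise, with a chi-square per degree of freedom of at least 16.7 within groups. A count of 0 allows 3 counts, or 0.0381 to 0.150 CPM by library, for counting error only.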

Additional observations from a re-analysis of the deposited data

How the results depend on the processing

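Of the 17 members called, 11 kept their direction and call in all settings tried: ITGA2, ITGA3, ITGA6, ITGA7, ITGAX, ITGB2, ITGB3, LAMA2, LAMB1, LAMB3 and LAMC1 (the stricter adjusted p under 0.01 was applied to counts only). The number of members higher ranged from 4 to 7 and lower from 8 to 13 over the settings, and from 5 to 7 and 8 to 12 with 1 library left out. Of 95 genes tested in the adhesion lists, 14 to 21 were higher and 22 to 29 lower over the 15 other settings, where 1659 to 3131 of all genes were higher and 2099 to 3631 lower. At an adjusted p under 0.01, 1659 of all genes were higher and 2099 lower, against 2697 and 3227. LAMC3 also missed the threshold with RLE factors (-0.43, adjusted p = 0.0531 by edgeR) and with no composition factors (-0.42, adjusted p = 0.0567). ITGAD gave no value under the filter of 1 CPM in 3 libraries. ITGA5 was called lower without a filter and by limma-voom, and ITGAV without a filter (adjusted p = 0.0406, 0.0333 and 0.0247). The local median turned ITGAE to -0.0392, ITGB5 to -0.23, ITGB8 to -0.0043 and FERMT2 to 0.096. Leaving out 1 library, ITGAE ranged from -0.029 to 0.16, ITGB8 from -0.046 to 0.32 and LAMB2 from -0.14 to 0.11. The cause of these changes was not tested.

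The titles number the replicates, but the deviations of same-numbered p53 WT and p53 KO libraries correlated at -0.0627, 0.160 and -0.239 for numbers 1, 2 and 3 over 12695 genes, so the numbers were not taken as pairs. Differently numbered libraries reached larger values, 0.433 for p53 WT 1 with p53 KO 3 and -0.448 for p53 WT 1 with p53 KO 2. Spread shared across the groups in that way is not modelled by the numbers, and its source was not tested. With the replicate block 6 members were higher and 9 lower, and those that missed the threshold include ITGA9 (1.37, adjusted p = 0.0578 by edgeR) and LAMC3 (-0.45, adjusted p = 0.0744). Over the adhesion lists 18 were higher and 25 lower with the block. Depth limits what can be said of members under 1 CPM, where 1 library can decide a call.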
